A study of Mus musculus with 8 samples.

Results

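Immediate early genes are transcribed within minutes of a stimulus, from factors already present in the cell, and most of their mRNAs decay fast. In the heart they respond to growth factors, mechanical load, adrenergic signalling and hypoxia, and they can also be induced by handling of the tissue after dissection. Their products include the AP-1 transcription factors, which pair a Fos protein with a Jun protein, and proteins that shut the same response down again. Here 10 such genes were followed in the neonatal mouse heart: the AP-1 subunits Fos, Fosb, Jun and Junb, the zinc finger transcription factor Egr1, the early response genes Ier2 and Ier3, the stress-induced transcription factor Atf3, the MAP kinase phosphatase Dusp1 and the mRNA decay factor Zfp36. Each symbol was looked up among the symbols of the loci without regard to case, and all 10 were found, at 1 locus each, out of 80155 loci of which 39614 carry a gene symbol.

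RNA-seq was made from the hearts of male Hsd:ICR(CD-1) mice, an outbred stock, taken on postnatal day 1 (P1, 4 hearts) or postnatal day 7 (P7, 4 hearts). The labels name no treatment and no genetic change, and each library is 1 mouse. The atrial appendages had been cut away, and the rest of each heart was snap frozen and made into its own library from total RNA cleared of ribosomal RNA. The stages stand on either side of the loss of regeneration in the mouse heart, and P7 against P1 is the only comparison of the design. Expression is given as FPKM, which divides the sequenced fragments of each locus by a length and by library size. Which length was used for a locus is not given in the sources used here. Levels of different genes are compared here only on this scale. The time between dissection and freezing of each heart is not given in the sources used here.

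Fragment counts were not part of the files, and the depth of each value is therefore unknown. The lowest values of each file put the worth of 1 fragment at 1 to 1.64 times that of P1 replicate 1, with P7 replicate 3 at 1.41 times, although the mapping summary of the study lists fewer reads for that heart than for any other. No heart held the same values as another (0 of 28 pairs). The defining markers of cardiomyocytes were abundant in every heart, with a summed level of 8126 to 14753 FPKM in P1 and 8642 to 15409 FPKM in P7, and no marker of 8 lists was at 0 in every heart. In whole hearts, fewer cells of a type and less RNA per cell cannot be told apart.

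The promoters of the 3 genes that rose at P7 and of Fos, the gene with the widest spread between P7 hearts, are shown here because such genes are controlled in part through sequences close to the start of transcription. Each run is the 250 bases before the start, 5′ to 3′ on the strand of the gene, from RefSeq on GRCm38.p6, which gave a promoter for 8 of the 10 genes and none for Ier2 or Egr1. Capitals mark matches, on either strand, to TGACGTCA (the cAMP response element), to its core TGACG, to TATAAA (the TATA box) or to CCAAT (the CCAAT box). The promoter of Jun lies on chr4:95052223-95052472 (minus strand), that of Junb on chr8:84978749-84978998 (minus strand), that of Dusp1 on chr17:26508473-26508722 (minus strand) and that of Fos on chr12:85473640-85473889 (plus strand).
Jun: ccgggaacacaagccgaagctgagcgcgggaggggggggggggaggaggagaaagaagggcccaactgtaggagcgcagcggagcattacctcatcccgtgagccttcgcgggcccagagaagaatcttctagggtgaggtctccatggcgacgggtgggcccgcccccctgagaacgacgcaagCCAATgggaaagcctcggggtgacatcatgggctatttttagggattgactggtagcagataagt
Junb: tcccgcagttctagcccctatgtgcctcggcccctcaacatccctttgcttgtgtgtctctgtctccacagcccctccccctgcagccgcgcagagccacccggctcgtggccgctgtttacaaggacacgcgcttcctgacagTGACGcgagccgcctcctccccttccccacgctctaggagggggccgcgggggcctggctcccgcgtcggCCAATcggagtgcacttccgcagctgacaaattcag
Dusp1: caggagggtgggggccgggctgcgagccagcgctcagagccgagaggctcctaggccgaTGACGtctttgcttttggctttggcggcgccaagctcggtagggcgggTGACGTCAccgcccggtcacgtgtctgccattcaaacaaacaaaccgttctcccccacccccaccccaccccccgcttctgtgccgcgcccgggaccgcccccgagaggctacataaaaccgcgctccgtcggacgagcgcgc
Fos: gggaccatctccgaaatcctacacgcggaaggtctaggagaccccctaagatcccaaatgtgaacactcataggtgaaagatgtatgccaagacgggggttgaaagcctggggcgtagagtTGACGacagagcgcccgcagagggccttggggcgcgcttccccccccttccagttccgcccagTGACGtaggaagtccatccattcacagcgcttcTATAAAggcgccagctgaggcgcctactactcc

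The TGACG core stood in 5 of the 8 promoters (Fos, Fosb, Junb, Atf3 and Dusp1), against 17.8% of 32851 mouse promoters of the same length. A whole TGACGTCA stood in that of Dusp1 alone, from -143 to -136, where it contains 2 overlapping copies of the core, 1 on each strand, and it stood in 1.55% of all promoters. TATAAA was found in that of Fos, from -33 to -28 (12.4% of all promoters), and CCAAT in those of Jun, Junb and Ier3 (33.8%). A CArG box, the binding sequence of serum response factor, was found in the promoter of Zfp36 from -58 to -49 (1.47% of all promoters), and the EGR sequence GCGNGGGCG in those of Zfp36 and Fosb (4.7%). TGANTCA, an AP-1 sequence, was in none of these 8 windows and in 6.75% of all promoters. Longer forms were not searched. TGACATCA, which is 1 letter away from TGACGTCA, stands unmarked in the printed Jun sequence and was not counted. These are matches of letters within 250 bases, and binding was not measured. The 8 windows had a GC content of 54.4% (Ier3) to 68.8% (Fosb), beside a median of 52.4% over all promoters. The part of GC content in these shares was not tested.

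**Figure D1:**
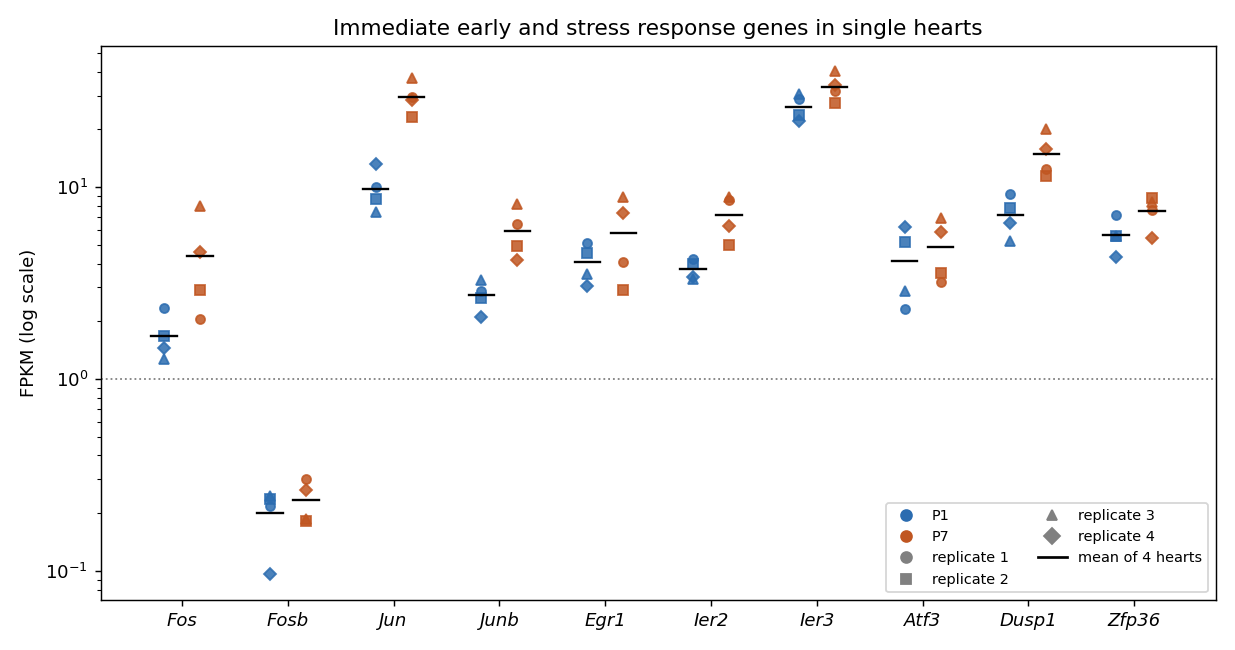
FPKM of the 10 genes (log axis) in each of the 4 P1 hearts (blue) and 4 P7 hearts (orange); the symbol gives the replicate and the black bar the mean of 4 hearts. Every P7 heart lies above every P1 heart for Jun, Junb, Ier2 and Dusp1, P7 replicate 3 (triangle) is the highest P7 heart of 8 genes, and Fosb stays under the dotted line at 1 FPKM.

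Of the 10 genes, 9 reached at least 1 FPKM in at least 1 heart and were tested, and these 9 reached it in every heart. Differential expression required a limma adjusted p under 0.05 over all 43172 tested loci and mean FPKM values at least 1.5 times apart. Of the 9 genes, 3 were higher in P7 (Jun, Dusp1 and Junb) and 0 were lower; at an unadjusted limma p under 0.05 these numbers were 5 and 0, where 25.6% of loci with a symbol were higher and 4.1% lower. Over all tested loci 3.82% were differentially expressed, and over the 17960 loci with a symbol 8.14% were, 7.74% as higher in P7. The fold change was above 0 in 9 of 9 genes, with a median of 0.76 on the log2 scale, where the median over all loci with a symbol was 0.19. Every P7 heart lay above every P1 heart in 4 of the 9, against 17.3% of loci with a symbol.

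Jun, the main partner of Fos proteins in AP-1, had the largest change. Its FPKM was 10.1, 8.64, 7.41 and 13.2 in the P1 hearts and 29.5, 23.3, 37.0 and 28.5 in the P7 hearts. The lowest P7 heart was well above the highest P1 heart. The mean rose from 9.82 ± 2.48 to 29.6 ± 5.65 FPKM (SD, n = 4 each), a ratio of 3.01, with a log2 fold change of 1.51 ± 0.21 (SE) and a limma adjusted p of 0.00615. The exact permutation test over 70 assignments of hearts gave p = 0.0286, the smallest it can give here. Jun was differentially expressed under each of the 18 alternative treatments of the data, with log2 fold changes of 1.21 to 1.65. The locus (chromosome 4, 95049034 to 95167318 on GRCm38) spans 118285 bases and holds 4 other annotated genes, among them the antisense Junos, while Jun itself has a single exon of 3189 bases on the minus strand. The FPKM may therefore include reads of these genes, and whether reads were counted by strand is not given in the sources used here.

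Junb, a Jun protein with weaker activating capacity, was measured at 2.86, 2.63, 3.30 and 2.12 FPKM in P1 and at 6.42, 4.93, 8.19 and 4.19 FPKM in P7. The stages did not overlap, and the P7 hearts differed among themselves by up to 1.96 times. The mean rose from 2.73 ± 0.492 to 5.93 ± 1.77 FPKM (SD, n = 4 each), with a log2 fold change of 0.87 ± 0.21 (SE) and a limma adjusted p of 0.0431. The exact permutation test gave p = 0.0286. The single exon of Junb lies on chromosome 8 (minus strand), in a locus from 84976909 to 84978748. Its transcript has a GC content of 62.6%, the highest of the 10, and after correction for GC content the log2 fold change was 0.40 with an adjusted p of 0.350. The call was also lost with median-ratio scaling, which brings all hearts to a common median level (log2 fold change 0.66, adjusted p = 0.0805). It was lost as well without P1 replicate 1, 2 or 3 or P7 replicate 1, 2 or 3, with adjusted p of 0.0865, 0.129, 0.0662, 0.119, 0.0573 and 0.133.

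Dusp1, a phosphatase that inactivates MAP kinases, had 9.21, 7.80, 5.26 and 6.49 FPKM in P1 and 12.5, 11.4, 20.1 and 15.9 FPKM in P7. All 4 P7 hearts were above all 4 P1 hearts. The mean rose from 7.19 ± 1.70 to 15.0 ± 3.93 FPKM (SD, n = 4 each), with a log2 fold change of 0.95 ± 0.22 (SE) and a limma adjusted p of 0.0366. The exact permutation test gave p = 0.0286. The locus lies on chromosome 17 from 26503964 to 26508519 (minus strand). With median-ratio scaling the call was kept (log2 fold change 0.73, adjusted p = 0.0469), and after GC correction it was lost (0.75, adjusted p = 0.117). It was also lost without P1 replicate 2 or 3 or P7 replicate 1, 3 or 4, with adjusted p of 0.0980, 0.0903, 0.0737, 0.109 and 0.0880.

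Ier2, a nuclear protein of the early growth response, stood just outside the threshold. Its FPKM was 4.24, 3.97, 3.34 and 3.40 in P1 and 8.62, 4.99, 8.87 and 6.29 in P7, again without overlap. The ratio of means was 1.92, from 3.74 ± 0.443 to 7.19 ± 1.87 FPKM (SD, n = 4 each), with a log2 fold change of 0.76 ± 0.20 (SE), a limma adjusted p of 0.0594 and an exact permutation p of 0.0286. The locus lies on chromosome 8 from 84660638 to 84662856. After GC correction the log2 fold change of Ier2 was 0.31 with an adjusted p of 0.438. With a filter of at least 1 FPKM in every heart, 14340 loci were tested. Ier2 and Fos were then also differentially expressed (limma adjusted p of 0.0193 and 0.0276). In that fit 2573 of 12730 loci with a symbol were differentially expressed, 2424 of them higher in P7.

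Fos, the founding AP-1 subunit, had the widest spread of all in P7. It was at 2.34, 1.68, 1.28 and 1.45 FPKM in P1 and at 2.04, 2.91, 8.002 and 4.61 FPKM in P7. The lowest P7 heart lay below the highest P1 heart, and P7 replicate 3 was 3.92 times the lowest P7 heart. The ratio of means was 2.60, larger than those of Junb and Dusp1, but the log2 fold change of 0.90 ± 0.30 (SE) had a limma adjusted p of 0.125 and the exact permutation test gave p = 0.0571. Without P7 replicate 3 the log2 fold change was 0.61. Fosb, its close relative, was listed at 0.0959 to 0.247 FPKM in P1 and 0.182 to 0.303 FPKM in P7 and was not tested by limma. On a rough scale set by the lowest values in each file, with the longest transcript taken as the length, Fosb rests on about 5 to 16 fragments a heart. That leaves small differences out of reach.

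The remaining 4 genes had overlapping stages and adjusted p of 0.361 or more by limma. Egr1, a zinc finger factor induced through serum response factor, was at 5.13, 4.56, 3.53 and 3.05 FPKM in P1 and at 4.07, 2.90, 8.91 and 7.33 FPKM in P7. Its P7 hearts fell on both sides of the P1 range, with 1 heart below it, 1 heart inside it and 2 hearts above it. The log2 fold change was 0.35 (95% interval -0.27 to 0.96), and it was -0.03 after GC correction. Atf3, which is induced by many kinds of stress, ran from 2.31 to 6.20 FPKM in P1 and from 3.21 to 6.92 FPKM in P7. Its P1 hearts were as far apart as its P7 hearts, and the log2 fold change was 0.22 (95% interval -0.40 to 0.84). Ier3, which acts on cell survival, ran from 22.1 to 30.5 FPKM in P1 and from 27.4 to 40.2 FPKM in P7 (log2 fold change 0.33, 95% interval -0.09 to 0.75). Its locus spans 37532 bases, although the annotated gene has 1240. Zfp36, which binds AU-rich mRNAs and speeds their decay, ran from 4.32 to 7.13 FPKM in P1 and from 5.41 to 8.82 FPKM in P7 (0.36, 95% interval -0.08 to 0.80). The intervals of Egr1, Atf3 and Zfp36 include a rise of the size measured for Ier2.

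**Figure D2:**
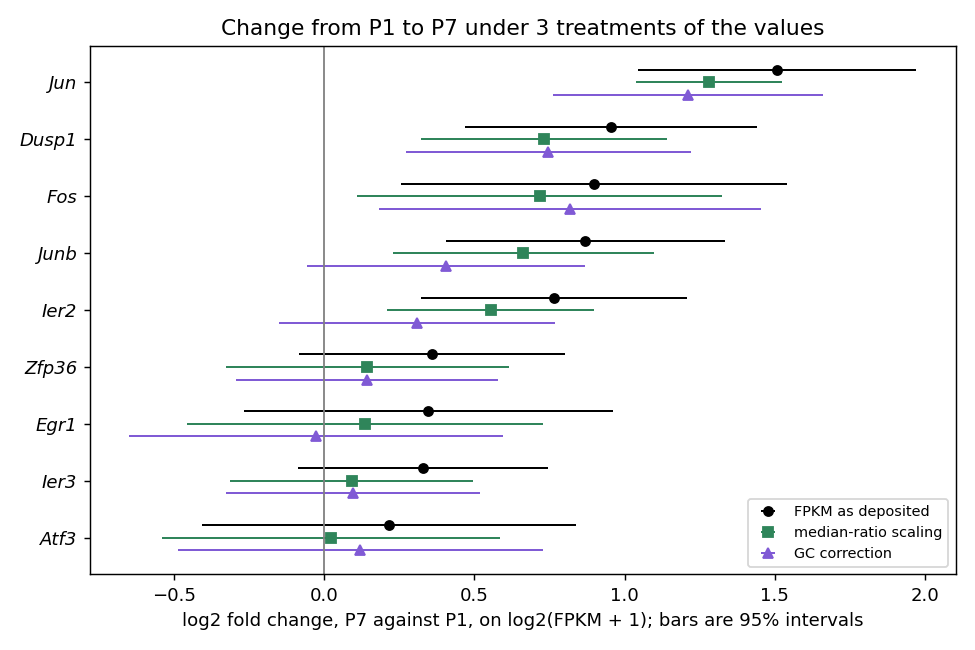
Log2 fold change of P7 against P1 for the 9 tested genes, with 95% limma intervals, from the FPKM as deposited (black), after median-ratio scaling (green) and after GC correction (purple). Jun keeps the largest value in all 3 (1.51, 1.28 and 1.21), while Junb goes from 0.87 to 0.66 and 0.40.

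By level, Ier3 was the highest of the 10 genes at P1 (mean 26.3 ± 4.06 FPKM) and no P1 heart of any other gene reached it. Jun, Dusp1, Zfp36, Atf3, Egr1, Ier2, Junb and Fos followed in this order of means, and each overlapped its neighbour in range except that every heart of Ier2 (3.34 FPKM or more) was above every heart of Junb (3.30 FPKM or less). Fosb stood apart at the bottom with 0.20 ± 0.0704 FPKM. At P7 the ranges of Ier3 (mean 33.3 ± 5.36 FPKM) and Jun overlapped. Dusp1 stood alone between Jun above it and Zfp36 below it. Zfp36, Ier2, Junb, Egr1, Atf3 and Fos, with means of 7.53 down to 4.39 FPKM, each overlapped the next. Since FPKM is scaled by length, the long loci of Jun and Ier3 make their place in this order less certain than that of the other genes.

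Because these genes can change between dissection and freezing, the spread between hearts of a stage was examined for each of them. On log2(FPKM + 1), the SD over the 4 hearts had a median over the 9 genes of 0.25 in P1 and 0.35 in P7. For the 8893 loci with a symbol in the same range of mean FPKM (3.04 to 29.8) the medians were 0.30 and 0.26. The P7 SD exceeded the P1 SD in 7 of the 9 genes, against 41.8% of those loci. Without P1 replicate 4 it did so in 7 of the 9 genes and in 65.6% of those loci, whose medians were then 0.20 in P1 and 0.26 in P7. Fos (0.24 in P1, 0.68 in P7) and Egr1 (0.27 and 0.62) differed most between the stages. The SDs of Ier3 (0.216 and 0.223), Zfp36 (0.250 and 0.275) and Dusp1 (0.304 and 0.346), which count among the 7, were close. Atf3 was the gene with the widest spread in P1 (0.53), where P1 replicates 2 and 4 were at 5.15 and 6.20 FPKM and the others at 2.31 and 2.87.

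The order of the stages did not hold under another scaling. With median-ratio scaling, whose factors ran from 0.801 to 1.27, the median SD of the 9 genes was 0.35 in P1 and 0.25 in P7, and 2 of 9 genes had the larger SD in P7. These 2 were Fos (0.26 in P1, 0.60 in P7) and Egr1 (0.38 and 0.52). In that scaling the loci of like level had medians of 0.20 and 0.18, below those of the 9 genes in both stages. Jun, with SDs of 0.11 and 0.10 after scaling, was below the loci of like level in both.

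**Figure D3:**
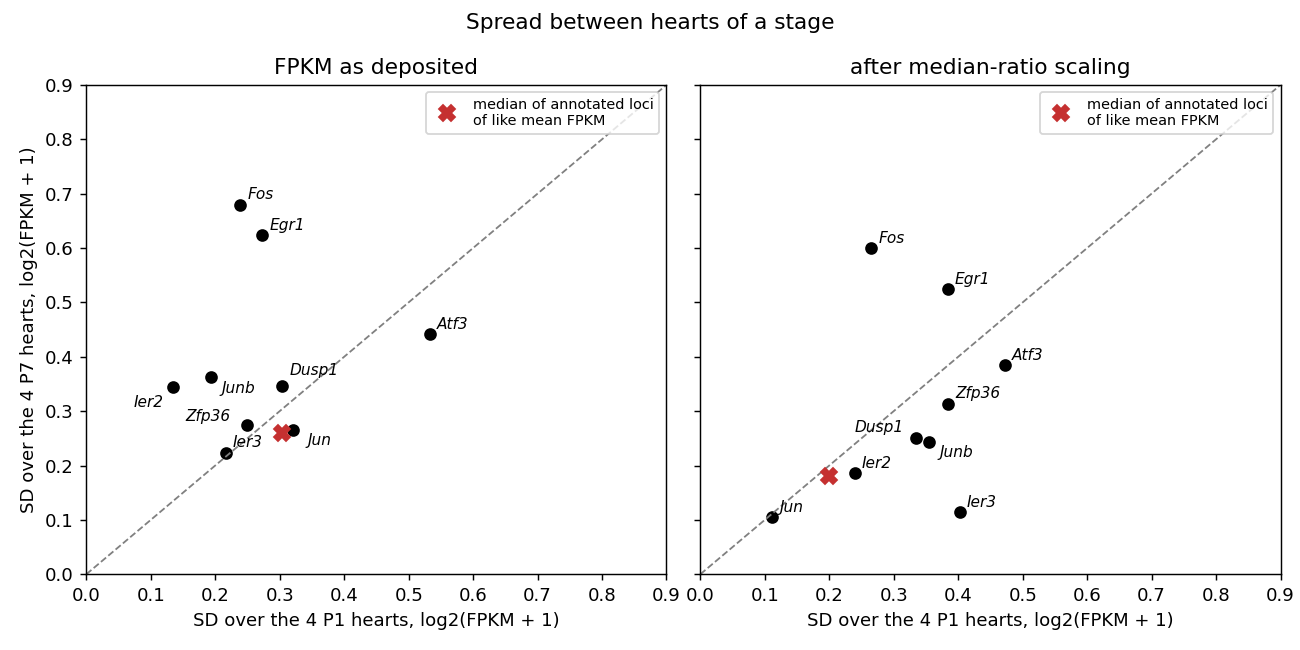
SD over the 4 P1 hearts (x) against SD over the 4 P7 hearts (y) of log2(FPKM + 1) for the 9 tested genes, as deposited (left) and after median-ratio scaling (right); the cross is the median of loci with a symbol of like mean FPKM and the dashed line marks equal SDs. As deposited 7 genes lie above the line, after scaling only Fos and Egr1 do.

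P7 replicate 3 stood at the top of the P7 hearts. It had the highest P7 value in 8 of the 9 genes, and Zfp36, the exception, was highest in P7 replicate 2 (8.82 against 8.32 FPKM). All 9 genes were above their P7 mean in P7 replicate 3, with a median deviation of 0.44 on the log2 scale. In the same heart 77.7% of all loci with a symbol were above their own P7 mean, with a median deviation of 0.18. With median-ratio scaling it was still the highest P7 heart in 5 genes and above the mean in 8, with a median deviation of 0.24. Without it the P7 SD was 0.44 for Fos and 0.56 for Egr1, and 5 of the 9 genes had a larger SD in P7 than in P1. P7 replicate 2 was the lowest P7 heart in 5 of the 9 genes, and only 19.2% of all loci with a symbol were above their P7 mean there. The summed leukocyte markers were highest in P7 replicate 3 too (70.8 FPKM, against 42.7 to 65.5 FPKM in the other P7 hearts), with 3 of the 6 markers highest there and the other 3 highest in P7 replicate 1. The endothelial, cardiomyocyte, erythroid and smooth muscle sums were also highest in P7 replicate 3, and the fibroblast sum in P7 replicate 1. The sums of the atrial and of the Schwann and nerve markers were highest in P7 replicate 1 too. They were at 3151 and 7.26 FPKM there, against 2776 and 1.24 FPKM in P7 replicate 3. Single markers highest in P7 replicate 3 were 4 of 5 endothelial, 5 of 5 cardiomyocyte, 4 of 6 erythroid and 1 of 5 fibroblast markers. Of the 5 smooth muscle and pericyte markers 2 were highest there and 3 in P7 replicate 1. The part of these cell types in the level of the early response genes was not tested.

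Within P1, replicate 1 was the highest heart in 5 of the 9 genes and above the mean in 8. P1 replicate 4 was above the P1 mean in only 2 of the 9, Jun and Atf3, although 78.4% of all loci with a symbol were above their P1 mean there. After median-ratio scaling the median deviation of the 9 genes in P1 replicate 4 was -0.38, the lowest of the 8 hearts.

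**Figure D4:**
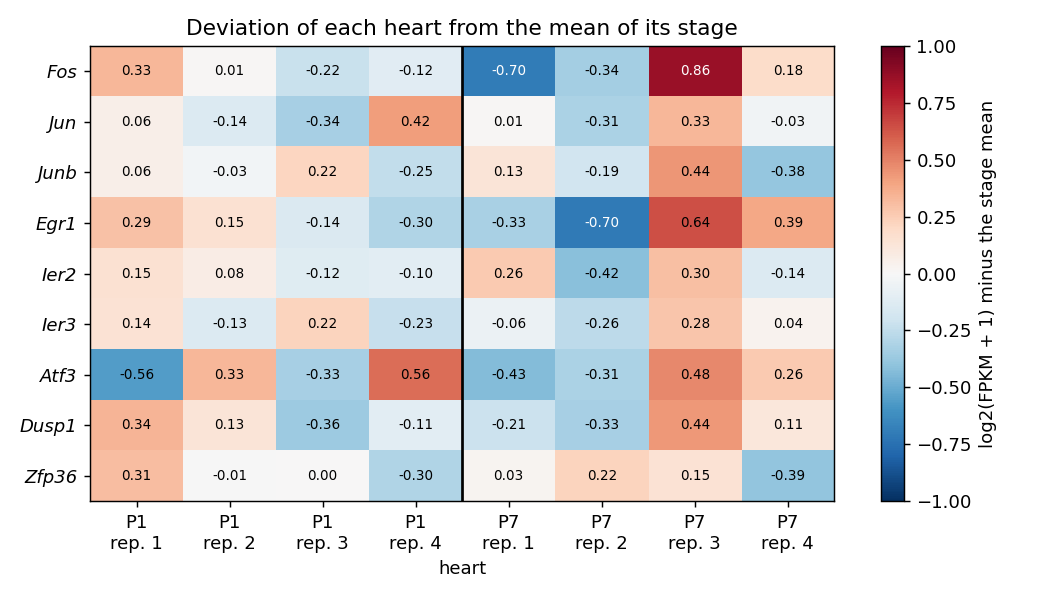
Each cell is log2(FPKM + 1) of 1 gene in 1 heart minus the mean of the 4 hearts of its stage, red above and blue below. The column of P7 replicate 3 is red for all 9 genes, from 0.15 for Zfp36 to 0.86 for Fos, whereas P1 replicate 4 is red for Jun and Atf3 only.

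Fos, Egr1 and Dusp1 moved together between hearts of the same stage. Over the 8 hearts, each taken relative to its stage mean, Pearson's r was 0.89 for Egr1 and Dusp1, 0.87 for Fos and Dusp1 and 0.86 for Fos and Egr1. Among the 36 pairs of the 9 genes 31 had an r above 0, with a median of 0.39, and the lowest was that of Atf3 and Zfp36 (-0.59). The values of a pair come from the same library and share its scaling. Single genes were also compared with the mean profile of the 9, which is a different measure from the r of a pair. The median r of 8681 other genes with that profile was 0.44, and 90.6% of them were above 0. No such background was computed for pairs. The genes most like that profile were Ndufa8 (r = 0.99), Dnajb14 (0.99), Pomp (0.98), Rab10 (0.98), E2f5 (0.97), Itpripl2 (0.97), Ndufaf2 (0.97) and Pnkd (0.97). None of these 8 belonged to the lists of early response genes. Of 53 other early response and stress genes compared with the profile, 4 were in the top 10%, a share below that of all compared genes. The median r of the 53 was 0.54, beside 0.44 over all 8681. The highest of them were the salt-inducible kinase Sik1 (rank 90, r = 0.92) and the Fos relative Fosl2 (rank 201, r = 0.88).

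The wider response was followed with 91 other genes in 6 lists, of which 85 could be tested. Of these, 19 were higher in P7 and 0 lower by limma (22.4%), and 38 and 2 at an unadjusted p under 0.05, with a median log2 fold change of 0.41, where loci with a symbol had a median of 0.19. Over loci with a symbol 7.74% were higher by the same rule. In 34 of the 85 the stages did not overlap, with P7 above P1 (17.3% of loci with a symbol). With median-ratio scaling 16 were higher and 3 lower (Adamts1, Edn1 and Hsp90aa1), beside 1388 higher and 621 lower of 17891 loci with a symbol. With quantile normalization 19 were higher and 2 lower, beside 1486 and 246 of 17960. The genes named in these lists shared the hearts of the 9 genes above, and P7 replicate 3 among them. Without P1 replicate 2 the number higher by limma was 0 (35 at an unadjusted p under 0.05), and without P7 replicate 3 it was 4 (36). Over all loci with a symbol the number higher fell from 1390 to 156 and 256 in the same fits. After GC correction 3 were left, Klf4, Btg2 and Gadd45a. No GC content was matched for Mkl1, Mkl2, Cyr61 and Ctgf, whose values entered that fit uncorrected. The fold change of Mkl1 thus stayed at 0.95, while its limma adjusted p went from 0.0330 to 0.0555.

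Among 19 tested transcription factors of the early response, 6 were higher in P7 (31.6%, beside 7.74% of loci with a symbol). Klf2 and Klf4, zinc finger factors of endothelial and other cells, rose from 10.5 ± 0.931 to 24.0 ± 3.85 FPKM and from 5.09 ± 1.70 to 14.3 ± 2.43 FPKM (SD, n = 4 each). Their log2 fold changes were 1.11 ± 0.18 and 1.37 ± 0.23 (SE; limma adjusted p of 0.0105 and 0.0134). Beside them stood the AP-1 subunit Fosl1 (1.03, adjusted p = 0.0220), the AP-1 partner Mafk (0.82, adjusted p = 0.0387), Ier5l (1.12, adjusted p = 0.0164) and the antiproliferative factor Btg2 (1.09, adjusted p = 0.0192). Fosl1, whose symbol is found at more than 1 locus, was low in both stages (1.304 ± 0.513 and 3.66 ± 0.668 FPKM). The summed endothelial markers ran from 78.2 to 133 FPKM in P1 and from 112 to 173 FPKM in P7, and 2 of the 5 were higher in P7. Emcn, another of the 5, was lower in P7 without overlap of the stages (21.7 ± 3.93 against 29.2 ± 2.34 FPKM, log2 fold change -0.43), without passing the test except with median-ratio scaling (-0.66, adjusted p = 0.0108). Their part in the rise of Klf2 and Klf4 was not tested.

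Of 21 feedback inhibitors and mRNA decay factors, 5 were higher in P7 (23.8%, beside 7.74% of loci with a symbol). They were the Zfp36 relatives Zfp36l1 (log2 fold change 0.85, adjusted p = 0.0373) and Zfp36l2 (0.70, adjusted p = 0.0462), the NF-kappaB inhibitor Nfkbia (0.86, adjusted p = 0.0357), the cytokine signalling inhibitor Socs3 (0.92, adjusted p = 0.0225) and the stress sensor Gadd45a (1.04, adjusted p = 0.0295). The fold change was above 0 in all 21, and in 19 with median-ratio scaling and 16 with GC correction. The median log2 fold change of the 21 was 0.39, where that of loci with a symbol was itself above 0, at 0.19. The share of those loci above 0 was not computed. Zfp36l1 ran from 19.2 to 33.2 FPKM in P1 and from 39.7 to 51.0 FPKM in P7, well above Zfp36 itself. Nfkbia was the steadiest of them in P7, at 9.63 to 10.8 FPKM.

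Of 14 secreted and effector genes, 2 were higher in P7, the small GTPase Rhob (1.35, adjusted p = 0.0150) and the cell cycle inhibitor Cdkn1a (0.88, adjusted p = 0.0455). In 4 of the 14, among them Adamts1 (-0.60) and Edn1 (-0.41), the fold change was below 0 without passing the test. With median-ratio scaling Adamts1 (-0.83, adjusted p = 0.0199) and Edn1 (-0.60, adjusted p = 0.0485) passed as lower. Of 7 genes of the integrated stress response, which slows translation and is executed by Atf4, 2 were higher, Atf4 itself (0.84, adjusted p = 0.0460) and the mTOR inhibitor Ddit4 (1.28, adjusted p = 0.0184). Of 8 heat shock genes 1 was higher, the co-chaperone Bag3, which serves protein quality control in muscle (1.06, adjusted p = 0.0163). The chaperone Hsp90aa1 had a fold change of -0.59 that did not pass the test, and with median-ratio scaling it passed as lower (-0.83, adjusted p = 0.00934). The shares higher in P7 were 14.3% of the secreted and effector genes, 28.6% of the integrated stress response genes and 12.5% of the heat shock genes. Beside them stood 7.74% of loci with a symbol. Of 16 upstream kinases and transcription factors 3 were higher (18.75%, beside the same 7.74%). They were the MAP kinase Mapk3 (1.29, adjusted p = 0.0202), its activating kinase Map2k2 (1.14, adjusted p = 0.0352) and Mkl1, the coactivator of serum response factor (0.95, adjusted p = 0.0330). The P1 values of Mapk3 were lowest in P1 replicate 3 (8.46 FPKM) and highest in P1 replicate 4 (19.8 FPKM), and its P7 values ran from 26.6 to 40.4 FPKM.

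**Figure D5:**
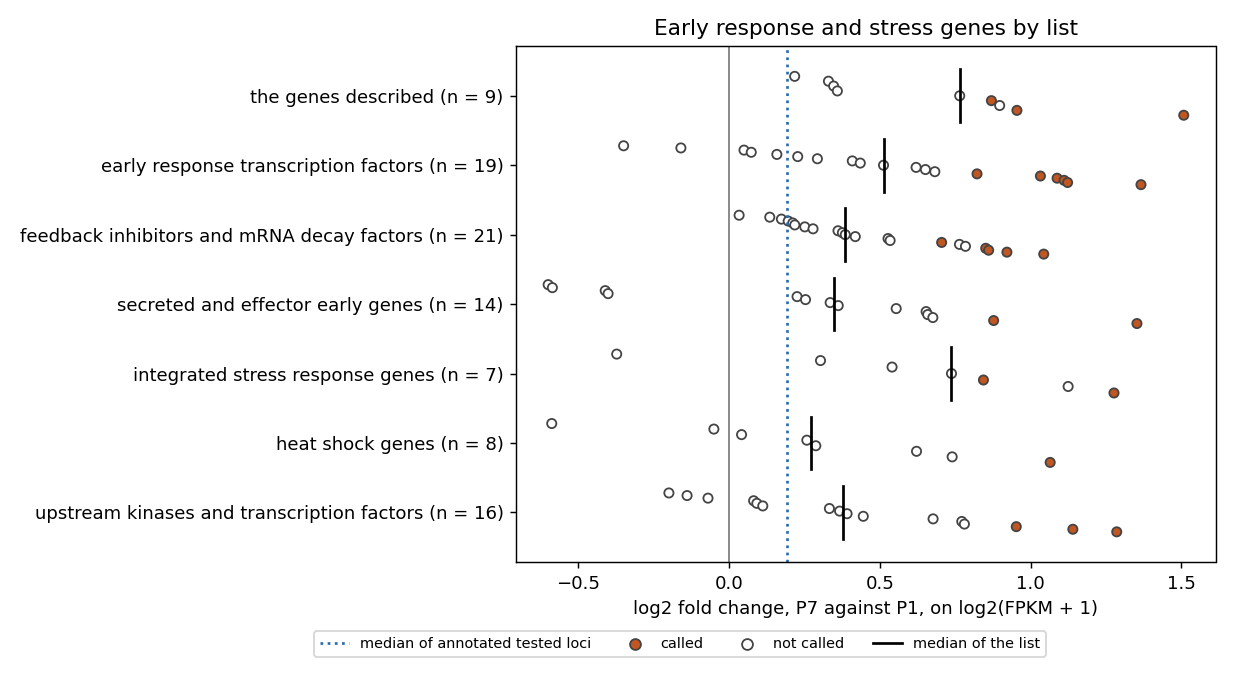
Log2 fold change of P7 against P1 on log2(FPKM + 1) for each tested gene of the 9 described and of 6 further lists; filled points were differentially expressed, the black bar is the median of a list and the dotted line the median of all loci with a symbol (0.19). All filled points lie to the right of 0 with the FPKM as deposited, 3 among the 9 genes and 19 among the others, whereas with median-ratio scaling 3 of the others were lower. With that scaling 621 of 17891 loci with a symbol were lower.

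The transcripts of the 10 genes were richer in GC (median 55.0%) than those of loci with a symbol (49.2%), and their longest transcripts were shorter (median 2210.5 against 2965 bases). After GC correction the median log2 fold change of the 9 tested genes was 0.31, where that of all loci with a symbol was 0.22, and with median-ratio scaling it was 0.55. Median-ratio scaling moved the median of all loci with a symbol from 0.19 to 0.0021, so that 0.55 is the rise of the 9 genes relative to it. All 9 fold changes stayed above 0 with that scaling, and Egr1 was the exception with GC correction.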

How the data were processed

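Hearts of 4 P1 and 4 P7 mice were sequenced, 1 library per heart, and grouped by the age in the labels. The deposited values are FPKM per locus, which the authors' provider made from reads aligned to GRCm38 (named in the submitters' processing notes) with Ensembl 70 annotation. The aligner is not given in the sources used here. No value column was left without a sample (0 columns).

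Loci that reached 1 FPKM in any of the 8 hearts (minimum 1 heart) were put on log2(FPKM + 1), a scale that understates the change of low genes. They were compared with limma 3.58.1 (R 4.3.3; lmFit, eBayes with trend, 2-sided, no covariates) over all 8 hearts. Differential expression meant a Benjamini-Hochberg adjusted p under 0.05 over all tested loci and means at least 1.5 times apart. Single genes were also compared by a 2-sided exact permutation test of the means over 70 assignments, unadjusted. P-values measure the spread between these hearts. Other steps used scipy 1.17.1, numpy 2.4.6 and pandas 2.3.3 under Python 3.11.15.

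The 10 genes, the other lists and the markers were chosen with earlier results of these data known. All 10 were named. From each other list the differentially expressed genes were named, at most 6, and by likeness the 8 genes with 1 symbol and a mean of at least 5 FPKM whose deviations from the stage mean followed the average of the 9 tested genes most closely. Adamts1, Edn1, Hsp90aa1, Sik1 and Fosl2 were named after their values were seen. Median-ratio scaling divided each heart by the median, over loci with a symbol, of its ratio to the geometric mean of the hearts. GC correction subtracted a lowess of each heart's deviation on transcript GC content (span 0.3, known for 85.9% of tested loci with a symbol), chosen after seeing the data. Over all 43172 tested loci GC content was known for 15430, and the others entered that fit uncorrected.

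The fit was tested on simulated data, at a limma adjusted p under 0.05. Of 200 loci changed 2-fold it recovered 39, and of 200 changed 4-fold it recovered 182, with 2 and 6 false calls among 43172 loci. The changed loci were drawn above a set level. The noise was independent between loci and equal in both stages, without shifts shared by a whole heart. In the hearts 1650 loci were differentially expressed, so the recovered shares need not hold there. Hearts with the same replicate number had an r of -0.28 to 0.22 between their deviations, above 0.1 in 1 of 4 pairs. Hearts with different numbers had an r of -0.37 to 0.29. So few pairs cannot decide whether hearts of the same number shared a step of processing.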

Additional observations from a re-analysis of the deposited data

How the results depend on the processing

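Of 162 fold changes of the 9 tested genes under 18 alternatives, 134 kept their direction and side of the threshold, 23 lost the call, 4 gained it and 1 reversed (Egr1, -0.027 with GC correction). The number of these genes differentially expressed, 3, became 1 without a filter, with quantile normalization, with eBayes without trend, with GC correction and with median-ratio scaling plus the replicate block, and 5 with at least 1 FPKM required in every heart. Leaving out each heart gave 1 to 3. Of the 85 other early response and stress genes, 19 became 1 without a filter, 30 with the filter on every heart, 29 with sample quality weights, 12 with eBayes without trend and 3 with GC correction, and 0 to 26 with a heart left out; 3 were lower in P7 with median-ratio scaling and 2 with quantile normalization. The number of genes with the larger SD in P7, 7, became 2 with median-ratio scaling or quantile normalization and 4 to 8 with a heart left out. The number of tested loci was 80155 without a filter and 14340 with the filter on every heart. What caused the changes was not tested for any of the alternatives.

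Loci with a symbol that were differentially expressed numbered 1462, of which 95.1% were higher in P7. The number was 231 of 39614 without a filter and 2573 of 12730 with the filter on every heart. It was 2951 with sample weights, 941 with eBayes without trend, 420 with GC correction and 167 to 2835 with a heart left out. With median-ratio scaling 69.1% of 2009 were higher and 621 were lower, and with quantile normalization 246 of 1732 were lower. The labels do not say that the replicate numbers pair the hearts. With the replicate block 2 of the 9 genes were differentially expressed, Jun and Junb, while Dusp1 had a limma adjusted p of 0.0595, and 1052 loci with a symbol were.

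Depth is unknown, each stage has 4 hearts, and the handling of each heart was not recorded in the sources used here. A gene that missed the threshold is not shown to be unchanged. None of 20 groups of 4 hearts held a value far from the others by Dixon's test.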
